A study of Mus musculus with 4 samples.

Results

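The forkhead transcription factors were examined on 4 two-colour oligonucleotide arrays that set metanephric mesenchyme (MM) against intermediate mesoderm (IM) of the mouse embryo. Members were all probes whose gene symbol on the array began with Fox, followed by a subfamily letter from a to s and a number, which gave 40 probes for 34 genes out of 22702 probes in all. Of the 40 probes, 19, for 17 genes, had a value on all 4 arrays and could be tested. The other 21 had values on 2 or 3 arrays and are described by those values. The clearest members were Foxn2, Foxf2 and Foxp1, each higher in MM on all 4 arrays with means of 2.04-fold to 2.20-fold, and Foxd1, slightly lower in MM on all 4.

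Forkhead proteins bind DNA through a winged-helix domain and are grouped by the sequence of that domain into lettered subfamilies. FoxC and FoxF factors pattern mesoderm, FoxA factors open chromatin in endoderm, FoxO factors are held in the cytoplasm by insulin and PI3K signalling, and FoxM1 drives genes of mitosis. In the developing kidney, Foxc1 and Foxc2 help to limit where the ureteric bud forms, and Foxd1 marks the progenitors of the stroma.

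Both tissues were dissected from embryos of both sexes at 10.5 days post coitum, and no genotype or treatment is given for either. MM is the mesenchyme from which nephrons of the permanent kidney arise, and IM is the strip of mesoderm that gives rise to the urogenital system. Each array carried both tissues directly, MM in channel 1 on arrays 1 and 2 and in channel 2 on arrays 3 and 4. The labels of arrays 3 and 4 exchange the words mesenchyme and mesoderm between the tissue names, and both were taken to be MM and IM. Whether the arrays share RNA or embryos is not given in the sources used here, so the tests rest on the variation among these arrays, which may be technical.

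Values are log2 ratios of MM over IM, so positive values mean higher in MM. This direction is the likely one: the titles name MM before IM and the channels of arrays 3 and 4 were already exchanged by the authors, but which dye each channel carried is left unsaid. Fewer probes were read on arrays 3 and 4 (15812 and 16242) than on arrays 1 and 2 (21509 and 21599). The lowest value in the file, -6.64, stands for a ratio of 0.01 and is called the floor here, since it gives no measured fold. Of 10 tested marker probes of MM, 5 were higher (all in both fits), among them Six2, Crym, Hoxa11 and Gdnf, 2 were lower and 3 did not pass. The lower ones were Wt1, at -1.57 ± 0.02 and called in both fits, and Itga8, which read 3.67 and 4.16 on arrays 1 and 2 with floor values on arrays 3 and 4. Of 6 tested nephric duct probes, 2 were higher and 3 lower (1 and 2 in both fits). Of 11 neural probes, 2 were higher and 8 lower (1 and 5 in both fits), and 2 of the lower probes, both of Ncam1, were above 0 on arrays 1 and 2. One of these, at 1.47 and 0.94, was at the floor on the other arrays. In dissected tissue, fewer cells of a type and less RNA per cell cannot be told apart.

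Of the 19 tested forkhead probes, 7 were higher in MM (36.8%) and 2 were lower (10.5%) in limma with a term for channel orientation, and 10 did not pass the adjusted p threshold of 0.05. Over all 14184 tested probes, 23.8% were called higher and 38.1% lower. Calls were thus less frequent among the forkhead probes in all, at 47.4% against 61.9%. No tested forkhead probe had a floor value, but part of the background did. With floor values left out, 4682 of 13191 probes were lower, in place of 5408 of 14184. The residual of the fit with the orientation term comes only from arrays that share an orientation. A fit without that term is therefore given beside it. In both fits 3 forkhead probes were higher and 1 was lower, or 21.1% together, where the background was 13.6% higher and 14.4% lower. The median log2 ratio of the tested forkhead probes was 0.132, and that of all tested probes was -0.0822. The sign was the same on all 4 arrays for 8 of the 19 probes (42.1%) and for 49.3% of all tested probes, with Foxc1 left out because array 1 read 0.00. No test was made of the difference between the family and the other probes.

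**Figure D1:**
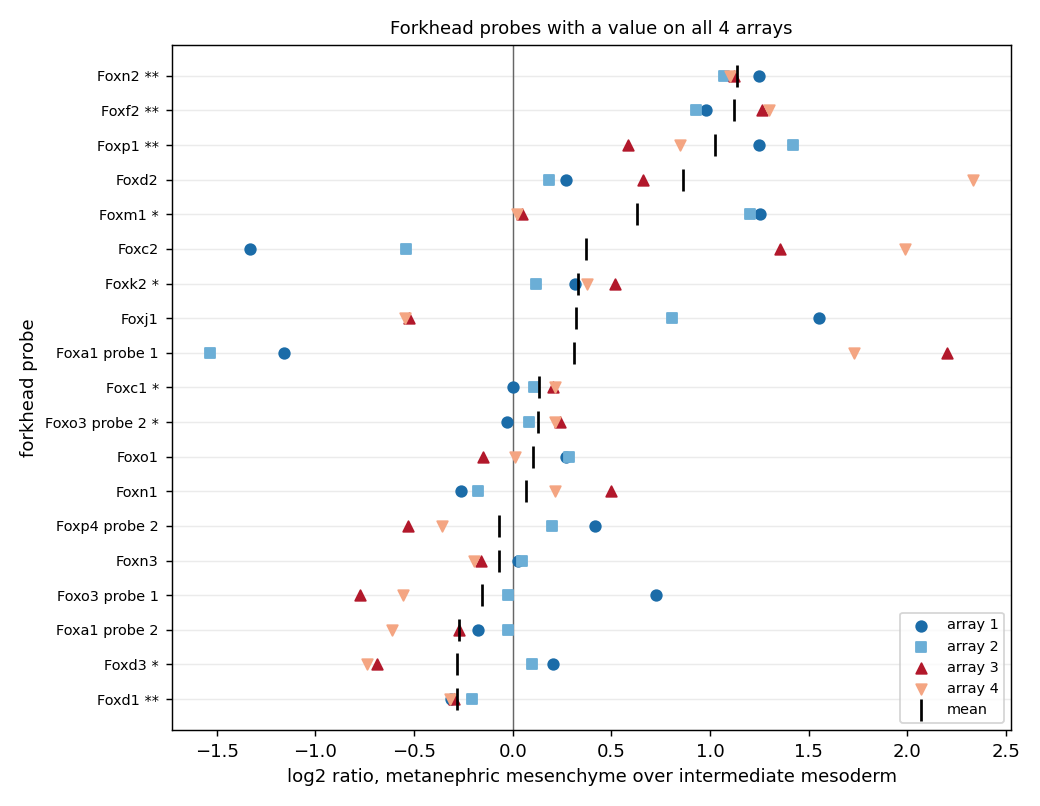
Log2 ratios (horizontal axis) of the 19 forkhead probes with a value on all 4 arrays, 1 row per probe, with 1 point per array and a bar for the mean over 4 arrays. One asterisk marks a probe called in limma with the orientation term and 2 asterisks a probe called in both fits. Foxn2, Foxf2 and Foxp1 lie right of 0.5 on each array, and Foxd1 lies left of 0 on each array.

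FoxF factors act downstream of Hedgehog signals in the mesoderm around the gut. Foxf2 read 0.98 and 0.93 on arrays 1 and 2, then 1.27 and 1.30 on arrays 3 and 4. All 4 arrays placed it higher in MM, and the pairs of each orientation lay close together with arrays 3 and 4 above arrays 1 and 2. The mean was 1.12 ± 0.19 (SD, n = 4), a 2.17-fold difference, with an adjusted p of 0.00049 in limma with the orientation term and 0.00473 without it. Of all tested probes, 11.7% had a mean larger in size in either direction. Foxf1, its close relative, had values of 0.97 and -0.13 on arrays 1 and 2 but lacked a value on arrays 3 and 4, so its 2 readings differ in sign and give no direction.

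Foxf2 lies between Foxq1 and Foxc1 on mouse chromosome 13, with 0 other protein-coding genes between these neighbours in the RefSeq gene table. Foxc1, which acts in somites, vessels and the kidney field, read 0.00, 0.11, 0.20 and 0.21 on arrays 1 to 4. It was therefore near equality in both tissues, with a mean of 0.13 ± 0.10. Its adjusted p was 0.0397 in limma with the orientation term and 0.187 without it, so it was called higher only with that term. Leaving out array 3 (adjusted p = 0.169) or array 4 (adjusted p = 0.174) also ended the call. Foxq1, a factor of hair and stomach epithelium, had 2 probes that were never read on the same array. One gave 0.93 and 1.16 on arrays 3 and 4 alone and the other 0.87 and 0.61 on arrays 1 and 2 alone, so each array gave Foxq1 1 value and each value was higher in MM. With arrays 3 and 4 alone the former had a mean of 1.05 and a limma adjusted p of 0.0332, and the latter was not called on arrays 1 and 2 alone, where no probe of the table passed in limma (9294 had an unadjusted p under 0.05). The 142 probes read on arrays 3 and 4 alone had a median mean of 0.819, so values above 0 were usual among them. Over all probes, limma on arrays 3 and 4 alone called 53.4%. The difference between these neighbouring genes was not tested.

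The upstream sequences of Foxf2, of its neighbour Foxc1 and of Foxd1 are shown because these 3 genes, all on chromosome 13, gave values that were higher, near equal and lower in MM. Each is the 250 bases before the RefSeq gene start on the plus strand of GRCm38.p6, with capitals on the GC box GGGCGG or its complement. Foxf2 is at chr13:31625566-31625815, Foxc1 at chr13:31806396-31806645 and Foxd1 at chr13:98353995-98354244.
Foxf2: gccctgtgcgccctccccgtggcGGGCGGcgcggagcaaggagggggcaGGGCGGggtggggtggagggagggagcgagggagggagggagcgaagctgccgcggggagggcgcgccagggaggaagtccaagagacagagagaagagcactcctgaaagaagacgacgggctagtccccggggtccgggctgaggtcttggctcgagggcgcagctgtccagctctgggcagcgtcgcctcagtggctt
Foxc1: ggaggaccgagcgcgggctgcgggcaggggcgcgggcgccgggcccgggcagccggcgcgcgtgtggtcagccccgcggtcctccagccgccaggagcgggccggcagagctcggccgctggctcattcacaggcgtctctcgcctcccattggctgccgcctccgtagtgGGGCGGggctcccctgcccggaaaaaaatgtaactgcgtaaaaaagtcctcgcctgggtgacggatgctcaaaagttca
Foxd1: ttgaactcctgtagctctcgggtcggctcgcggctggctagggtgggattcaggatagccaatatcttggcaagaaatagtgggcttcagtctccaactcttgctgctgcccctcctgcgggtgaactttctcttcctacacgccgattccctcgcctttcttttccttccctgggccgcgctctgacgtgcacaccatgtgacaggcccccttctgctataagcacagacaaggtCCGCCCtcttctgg

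The Foxf2 window held 2 GC boxes, and those of Foxc1 and Foxd1 held 1 each, the one of Foxd1 on the minus strand. G and C made up 71.6% of the Foxf2 window, 70.8% of the Foxc1 window and 57.2% of the Foxd1 window, and the median over 32851 such windows was 52.4%. RefSeq promoter entries matched 23 of the 34 forkhead genes, with 28 windows. A GC box on either strand was found in 19 of these 28 windows and in 32.7% of all windows, beside a median GC content of 62.4% in the forkhead windows. The forkhead binding core TGTTTAC was found on either strand in 3.17% of all windows and, among the forkhead genes, in 1 window, that of Foxa1. The related core TGTTTGC was found in 4.30% of all windows and in 1 forkhead window, 1 of 3 for Foxp1. These matches describe letters in a window and do not show that a factor binds there.

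The genes of the FoxC and FoxF cluster on chromosome 8, Foxf1, Foxc2 and Foxl1, gave no common direction. Foxc2, the partner of Foxc1 in somites and kidney, read -1.33 and -0.54 on arrays 1 and 2, then 1.36 and 1.99 on arrays 3 and 4. The orientations thus had opposite signs, and the mean of 0.37 ± 1.56 did not pass (limma adjusted p = 0.197). Its orientation term did pass (limma adjusted p = 0.0215). Foxl1, a gene of the mesenchyme under gut epithelium, read 1.79 on array 1 and -1.71 on array 2 and had no value elsewhere. Foxs1, a gene of pericytes and sensory neurons, read -1.10 and -0.90 on arrays 1 and 2 alone, both lower in MM.

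Among FoxD factors, Foxd1 was lower in MM. It read -0.31, -0.21, -0.30 and -0.32 on arrays 1 to 4, negative on each array and with little spread. The mean was -0.28 ± 0.05, a 1.22-fold difference, with a limma adjusted p of 0.00671 with the orientation term and 0.0193 without it. Without array 3 the adjusted p was 0.0623 and without array 4 it was 0.0611, at log2 ratios of -0.29 and -0.28. This size is common, since 46.4% of tested probes had a mean larger in size in either direction.

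Foxd2, which is expressed in kidney mesenchyme and facial mesenchyme, read 0.27, 0.19, 0.66 and 2.33 on arrays 1 to 4. All values were above 0, but the mean of 0.86 ± 1.00 rested largely on array 4 and did not pass (limma adjusted p = 0.101). Without array 4 the log2 ratio was 0.44, and without array 3 it was 1.28, and Foxd2 was called higher in each of these fits. The residual of these fits comes from arrays 1 and 2 alone and does not hold the gap between arrays 3 and 4. Foxd3, the factor of early neural crest, read 0.20 and 0.10 on arrays 1 and 2, then -0.69 and -0.74 on arrays 3 and 4. Its call as lower in MM (-0.28 ± 0.50, limma adjusted p = 0.0074) was therefore not shared by both orientations, and it was lost without the orientation term (adjusted p = 0.429). Leaving out array 3 (adjusted p = 0.0611) or array 4 (adjusted p = 0.0641) also ended it. Foxd4 read 1.31 on array 1 and -2.08 on array 2 and had no other value. Foxe3, the factor of the lens and the neighbour of Foxd2 on chromosome 4, read -1.22 and -0.28 on arrays 1 and 2 alone.

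Foxp1 and Foxp2 belong to a subfamily that pairs through a leucine zipper and acts in lung, heart and motor neurons. Foxp1 read 1.25 and 1.42 on arrays 1 and 2, then 0.58 and 0.85 on arrays 3 and 4. It was higher in MM on each array, with the lower values on arrays 3 and 4. The mean was 1.03 ± 0.38, a 2.04-fold difference, with a limma adjusted p of 0.00212 with the orientation term and 0.0216 without it.

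Foxp2 gave the largest values of any forkhead probe, 3.93 and 4.33 on arrays 1 and 2, but had no value on arrays 3 and 4. It was not tested, and among the 4250 probes read on arrays 1 and 2 alone, 125 (2.94%) had a mean at least as large in size in either direction. Foxp4 had 2 probes. One read 0.42 and 0.20 on arrays 1 and 2, then -0.53 and -0.36 on arrays 3 and 4 and did not pass (-0.07 ± 0.45, limma adjusted p = 0.397), and the other read -0.34 and -0.12 on arrays 1 and 2 alone. Foxp3, the factor of regulatory T cells, read -0.41 and 0.15 on arrays 1 and 2.

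Foxn2 had the largest mean of the tested forkhead probes. It belongs to a divergent branch of the family and is less studied than the mesodermal members. It read 1.25, 1.07, 1.12 and 1.10 on arrays 1 to 4. The orientations did not separate, and the mean was 1.13 ± 0.08, a 2.20-fold difference, with a limma adjusted p of 0.000897 with the orientation term and 0.0023 without it. Foxn3, a repressor linked to the cell cycle checkpoint, read 0.03, 0.05, -0.16 and -0.19 and did not pass (-0.07 ± 0.12, limma adjusted p = 0.0964). Foxn1, the factor of thymic epithelium, read -0.26, -0.17, 0.50 and 0.22, with opposite signs in the orientations, and did not pass (0.07 ± 0.35, adjusted p = 0.405). Foxn4, a factor of retinal and spinal progenitors, read -1.10 and -0.38 on arrays 1 and 2 alone.

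Foxk2, a widely expressed repressor, read 0.32, 0.12, 0.52 and 0.38 on arrays 1 to 4. It was higher in MM on each array by a small amount (0.33 ± 0.17, limma adjusted p = 0.0143), and missed the threshold without the orientation term (adjusted p = 0.0544). It also missed it with any 1 array left out (adjusted p = 0.0543 to 0.0894). Foxj1, the regulator of motile cilia, read 1.55 and 0.81 on arrays 1 and 2, then -0.53 and -0.54 on arrays 3 and 4. These orientations had opposite signs and the mean of 0.32 ± 1.04 did not pass (limma adjusted p = 0.145). Its log2 ratio was 0.14 without array 1 and 0.51 without array 2, and Foxj1 was called higher in each of these fits. The residual of these fits comes from arrays 3 and 4 alone, which both read below 0. Foxj2, a relative of Foxj1, read 0.07 and -0.35 on arrays 1 and 2 alone.

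Foxm1 was higher in MM with the orientation term and close to equal on arrays 3 and 4. It read 1.25 and 1.20 on arrays 1 and 2, then 0.05 and 0.02 on arrays 3 and 4. The pairs did not overlap, the mean was 0.63 ± 0.69, and the limma adjusted p was 0.0011 with the orientation term and 0.219 without it. Of 17 tested probes for G2 and mitosis genes that FoxM1 is known to regulate or accompany, 8 were higher (6 in both fits), 4 were lower (1 in both fits), while 5 did not pass. Cenpe, a kinetochore motor, was at 1.49 ± 0.07, Cdc25b, a phosphatase of mitotic entry, at 0.79 ± 0.17, Plk1, a mitotic kinase, at 0.52 ± 0.05 and Melk, a kinase of dividing progenitors, at 0.34 ± 0.07. Another Plk1 probe, not tested, read 0.44, 0.15 and -0.95 on arrays 1, 2 and 4. The kinase Aurkb was lower in both fits (-0.31 ± 0.07). The median of the list was 0.0916, against -0.0822 over all tested probes.

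FoxO factors gave small values where they could be tested. Foxo1 read 0.27, 0.29, -0.15 and 0.01 and did not pass (0.10 ± 0.21, limma adjusted p = 0.104). Foxo3 had 3 probes that disagreed. One read 0.73, -0.02, -0.78 and -0.55 and did not pass (adjusted p = 0.44). Another read -0.03, 0.08, 0.24 and 0.22 and was called higher by a small amount (0.13 ± 0.12, limma adjusted p = 0.0438), but not without the orientation term (adjusted p = 0.249). It was also lost without array 2, 3 or 4 (adjusted p = 0.0559 to 0.193). The remaining one read 3.40 and 1.83 on arrays 1 and 2, was not read on array 3 and was at the floor on array 4. No direction can be given for Foxo3 from these probes. Foxo4 read -0.33 and -0.22 on arrays 1 and 2 alone.

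Of 22 tested probes for insulin and PI3K regulators and FoxO target genes, 8 were higher (4 in both fits), 5 were lower (1 in both fits), while 9 did not pass, and 3 of the 5 lower probes had values at the floor. The kinase Akt1, which phosphorylates FoxO factors, was at 0.98 ± 0.10, the insulin receptor substrate Irs2 at 0.49 ± 0.09 and the receptor Igf1r at 0.34 ± 0.05 and 0.24 ± 0.04 by 2 probes. A probe of the FoxO target Sesn3, a stress sensor, was lower (-0.29 ± 0.11), and another Sesn3 probe read 5.36, 5.78 and 3.46 on arrays 1, 2 and 4. The median of the list was 0.0377.

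FoxA factors, which act in endoderm and floor plate, could not be given a direction. Foxa1 had 2 tested probes. One read -1.16 and -1.54 on arrays 1 and 2, then 2.20 and 1.73 on arrays 3 and 4, and did not pass (0.31 ± 1.93, limma adjusted p = 0.105). The other read -0.18, -0.02, -0.27 and -0.61 and did not pass either (-0.27 ± 0.25, adjusted p = 0.0533). One Foxa2 probe read -3.65, 2.76 and 0.42 on arrays 1 to 3, so arrays 1 and 2, which share an orientation, differed in sign. The other read -1.54 and -0.68 on arrays 1 and 2 but was at the floor on array 4. Foxa3 read 0.48, 0.04 and 0.53 on arrays 1, 2 and 4, each above 0. Where 3 values were enough for a test, Foxa3 did not pass (0.40, limma adjusted p = 0.137).

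Of 12 tested probes for endoderm and floor plate genes, 8 were higher in MM (6 in both fits), 3 were lower (1 in both fits), while 1 did not pass, with a median of 0.632. The lower axon guidance gene Ntn1 read 0.93 and 0.10 on arrays 1 and 2 with floor values on arrays 3 and 4. Shh, a ligand that FoxA factors regulate in floor plate and gut, was at 2.81 ± 1.44, and the epithelial adhesion gene Epcam was at 1.87 ± 0.06. Afp (1.86 ± 0.32) and Ttr (1.17 ± 0.38), which encode proteins secreted by liver and yolk sac endoderm, were also higher. Alb, another secreted liver protein, was lower with the orientation term (-0.20 ± 0.12, negative on all 4 arrays) and was not called in both fits. The endoderm factor Gata6 was lower in both fits (-0.21 ± 0.07). These genes are markers of endoderm and floor plate cells, and the part of such cells in the forkhead values was not tested.

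The remaining members were read on 2 or 3 arrays. Foxb2, a neural factor, read 1.68 and 2.47 on arrays 1 and 2, and 19.8% of the probes read on those arrays alone had a mean at least as large in size. Foxi1, the factor of the inner ear and of acid-secreting kidney cells, read 0.44, 0.75 and 0.34 on arrays 1 to 3, all higher in MM, and did not pass where 3 values were enough (0.46, limma adjusted p = 0.0681). Foxh1, the partner of Smad proteins in Nodal signalling, read -0.66 and -0.39 on arrays 1 and 2. Foxl2, the factor of the ovary, read 1.48 and 0.47 on arrays 1 and 2 but was at the floor on array 3, so its arrays disagree in sign.

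**Figure D2:**
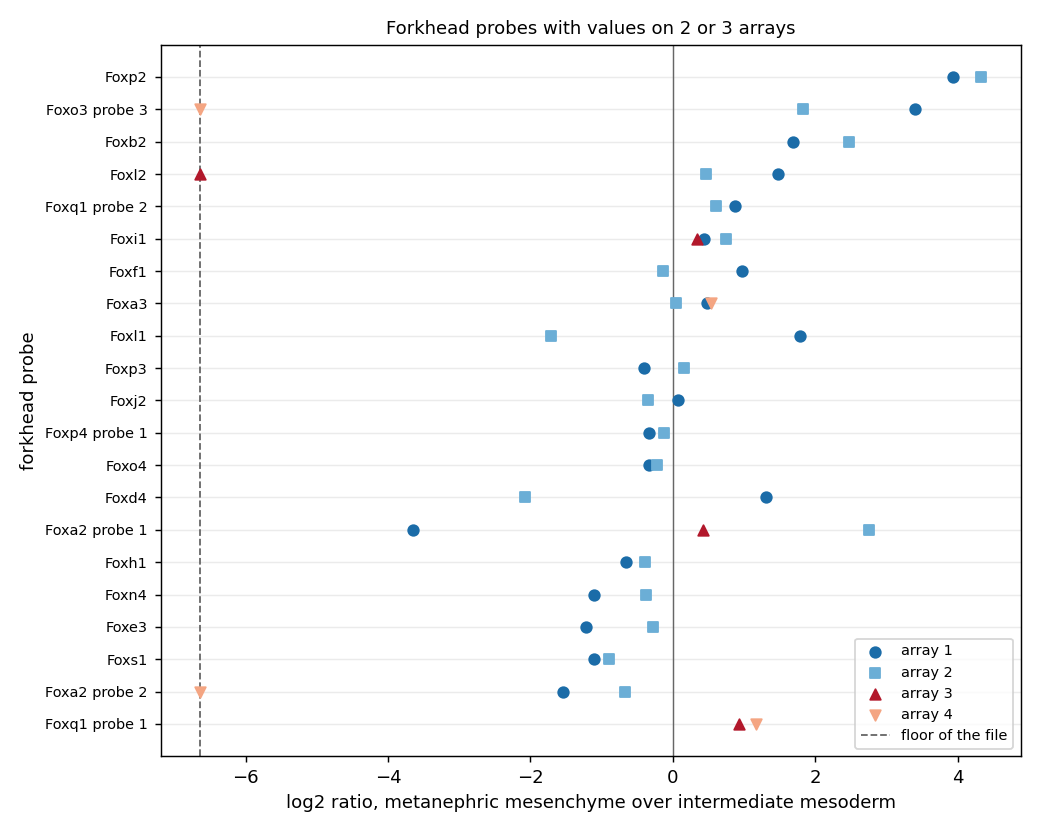
Log2 ratios (horizontal axis) of the 21 forkhead probes with values on 2 or 3 arrays, 1 row per probe and 1 point per array, with the floor of -6.64 as a dashed line. Foxp2 lies farthest right at 3.93 and 4.33 on arrays 1 and 2, and 3 probes have a point at the floor.

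Forkhead probes lacked values more often than the table as a whole. All 4 arrays gave a value for 47.5% of forkhead probes and 62.5% of all probes, and 35% of forkhead probes and 18.7% of all probes had values on arrays 1 and 2 alone. Of the 14 forkhead probes of the latter kind, 3 were positive on both arrays, 6 were negative on both and 5 differed in sign. Their means over arrays 1 and 2 had a median of -0.187, against 0.16 for all 4250 probes of this kind. The signs of those 4250 were not counted, so whether the forkhead split is unusual cannot be said. The median gap between arrays 1 and 2 was 0.492 for these 14 probes and 0.112 for the 19 tested ones, where the same gap over all probes was 0.482 and 0.104. Readings on arrays 1 and 2 alone thus varied more between arrays, for forkhead genes as for others.

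Many values differed between the channel orientations, for forkhead probes as for others. The orientation term passed for 10 of the 19 tested forkhead probes (52.6%) and for 44.6% of all tested probes. Opposite signs in the orientations were seen for 9 of the 19. The share over all tested probes was not counted, so this count does not set the family apart. Only 49.3% of all tested probes kept 1 sign on all 4 arrays, against 42.1% of the forkhead probes. Across these 19 probes, which are no replicates and share arrays, Pearson's r was 0.902 for arrays 1 with 2 and 0.874 for arrays 3 with 4. Across orientations it ran from -0.344 to -0.144, where the 13191 probes without floor values gave 0.113 to 0.274. With arrays 3 and 4 alone, limma called 11 of 20 forkhead probes, where 53.4% of all probes were called. Among the 11 were Foxf2 (1.28), Foxn2 (1.11) and Foxd1 (-0.31), and Foxp1 missed the threshold (0.72, adjusted p = 0.0574). The 11 also held Foxa1 probe 1 (1.97), Foxj1 (-0.54) and Foxn3 (-0.18), which did not pass with all 4 arrays. For Foxj1 the sign was opposite to that of its mean over the 4 arrays.

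**Figure D3:**
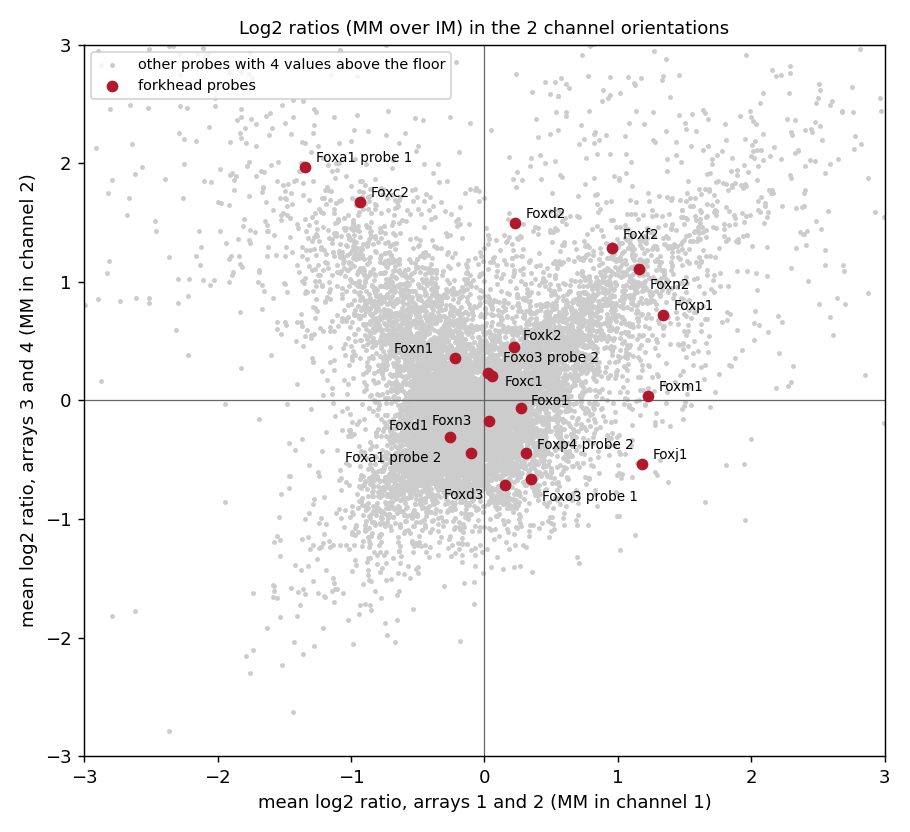
Mean log2 ratio on arrays 1 and 2 (horizontal axis) against that on arrays 3 and 4 (vertical axis) for the 19 tested forkhead probes (named red points) and the other probes among 13191 with 4 values above the floor (grey), of which 81 lie outside the axes. Foxf2, Foxn2 and Foxp1 lie in the upper right, where both orientations are positive, and Foxc2 and a Foxa1 probe lie in the upper left, where they oppose.

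Genes that work with the mesodermal forkhead factors went both ways. Of 8 tested probes for Hedgehog and splanchnic mesoderm genes, 3 were higher and 2 lower, all 5 in both fits, while 3 did not pass, with a median of 0.0345. Nkx2-5, a factor of heart and pyloric mesoderm, was at 1.32 ± 0.45 and the Hedgehog receptor Ptch1 at 1.20 ± 0.05. Osr1, a factor of early intermediate mesoderm, was at 0.44 ± 0.17, and Tcf21, a factor of visceral mesoderm, was lower (-0.65 ± 0.22). Of 20 tested probes for mesoderm genes of the FoxC territory, 4 were higher and 8 lower (4 and 5 in both fits), while 8 did not pass, with a median of -0.0934. The kidney genes Six2 (3.00 ± 0.63) and Gdnf (1.92 ± 0.13) were higher, and the somite factor Tcf15 (-0.95 ± 0.21) and the Notch ligand Dll1 (-0.91 ± 0.15) were lower.

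Of 10 tested probes for genes of the renal stroma, where Foxd1 acts, 3 were higher and 6 lower (3 and 5 in both fits), while 1 did not pass, with a median of -0.401. One of the lower probes was that of Ntn1, at the floor on arrays 3 and 4. The matricellular gene Smoc2 (1.64 ± 0.31) was higher, and the proteoglycan Dcn (-1.03 ± 0.55) and the mesenchymal factor Tbx18 (-0.86 ± 0.17 and -0.28 ± 0.13 by 2 probes) were lower. Of 10 tested probes for genes of the gonad, where Foxl2 acts, 5 were lower, all in both fits, while 5 did not pass, with a median of -0.623. The lower ones included the signal Wnt4 (-1.97 ± 0.22) and the nuclear receptor Nr5a1 (-1.68 ± 0.22).

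Of 13 tested neural crest probes, 3 were higher and 5 lower (1 of each in both fits), while 5 did not pass, with a median of -0.0333. One lower probe, of the receptor Erbb3, read -0.23 and 0.14 on arrays 1 and 2 with floor values on arrays 3 and 4. The crest factor Snai2 was higher (1.77 ± 0.80) and the neural plate border factor Zic1 was lower (-1.05 ± 0.51). Of 7 tested probes for motile cilium genes, 2 were lower and 5 did not pass, with a median of -0.0394, and the ciliary transport gene Ift88 (-0.30 ± 0.11) was called in both fits. Of 3 tested Nodal pathway probes, Smad2 was lower (-0.22 ± 0.05, in both fits), while 2 did not pass, with a median of -0.101.

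**Figure D4:**
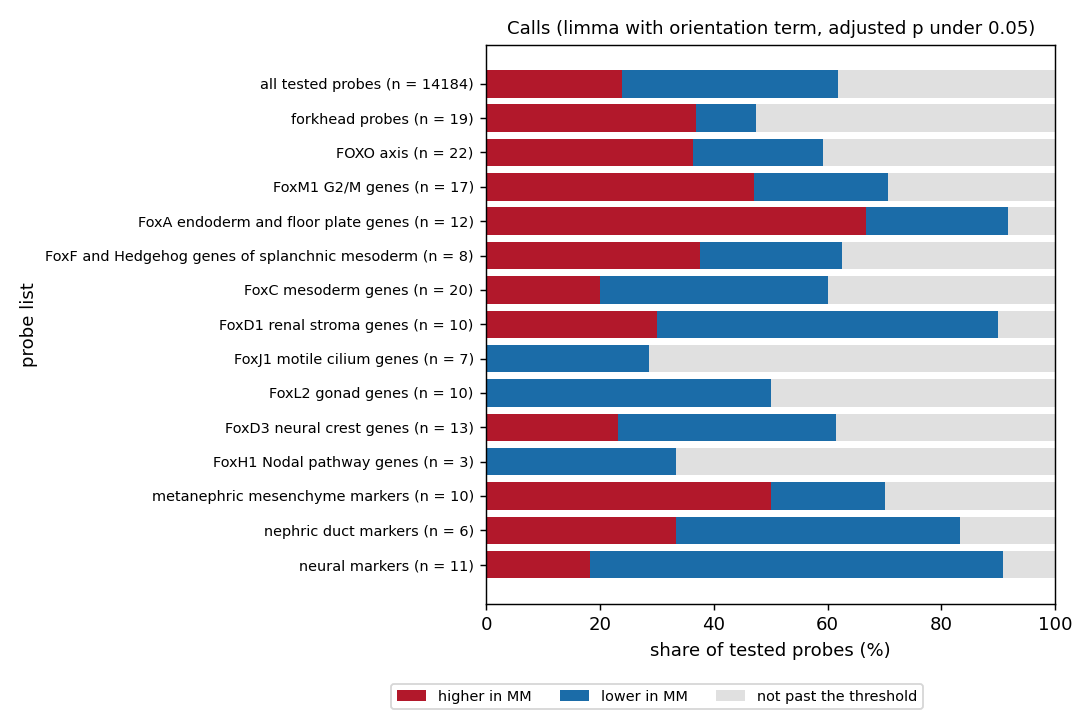
Share of tested probes (horizontal axis, percent) called higher (red), lower (blue) or not past the threshold (grey) in limma with the orientation term, for all 14184 tested probes, the 19 forkhead probes and each gene list, with the number of tested probes in brackets. Among forkhead probes 36.8% were higher and 10.5% lower, and over all probes 23.8% and 38.1%.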

How the data were processed

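RNA of MM and IM was amplified, labelled by an amino allyl method and hybridised on 4 arrays. The deposited file gives a log2 ratio for each probe on each array. The authors, per the labels' protocols, quantified spots with Imagene 5.5, exchanged the channels of arrays 3 and 4, and adjusted the control channel by a lowess fit with 20% of the data at each point. Control values under 10 were raised to 10, which bears on ratios of dim probes. How background was corrected or probes were filtered is not given in the sources used here. Intensities were not used here, and precision is limited by the number of arrays.

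Log2 ratios of the 14184 probes with 4 values were fitted in limma 3.58.1 (R 4.3.3) on the tissue difference (intercept) and the channel orientation. P-values were adjusted over all of them by the Benjamini-Hochberg method. Errors are SDs over arrays and hold the orientation difference. The scripts were tested on simulated data. Platform symbols were updated through RefSeq (GRCm38.p6), which changed 0 forkhead symbols. Probes of a gene are numbered in the order of their identifiers and tested singly. The members and the gene lists were chosen with earlier results of these data known. Named in full were forkhead probes called in both fits or at least 2-fold, and every other member by its values. In each gene list up to 4 genes called in both fits were named, those with the largest means in size, and for some lists fewer or none. Among the MM markers, Wt1 was named besides these 4. Aurkb, Gata6, Alb, Ntn1, Erbb3, Itga8 and Ncam1 were named after their values were seen, for calls that went the other way or rested on the floor.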

Additional observations from a re-analysis of the deposited data

Results flagged for a closer look

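For Foxd1, array 2 stood apart from the other arrays: the gap to its nearest neighbour was 0.839 of the range over the 4 arrays. It read -0.21, where the others read -0.30 to -0.32. By chance, about 1 in 20 groups of 4 shows such a gap, and 19 forkhead probes were examined.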

How the results depend on the processing

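Of 19 tested forkhead probes, 9 passed (47.4%, against 61.9% of all probes). With 1 array left out, 6 to 9 passed, of 19 tested without array 1 or 2 and of 22 without array 3 or 4. The forkhead shares were 47.4%, 42.1%, 27.3% and 27.3% without arrays 1, 2, 3 and 4. Those of all probes were 46.8%, 47.7%, 34.2% and 36.9%. The forkhead passes held 8, 7, 4 and 4 of the 9 without arrays 1, 2, 3 and 4. The forkhead count was 4 without the orientation term (21.1%, against 28% of all probes). It was 0 with orientation pairs averaged or with arrays 1 and 2 alone (unadjusted p under 0.05 in limma for 2 and 14 probes).  Over all probes the count of 8779 became 3968 without the orientation term, 0 with pairs averaged or with arrays 1 and 2 alone (unadjusted 1526 and 9294), and 5441 to 6790 with 1 array left out. Foxf2, Foxn2, Foxp1 and Foxm1 kept their direction under each alternative and their call with any 1 array left out, with arrays centred or scaled, with floor values left out and with 3 or more values. Without the orientation term Foxf2, Foxn2 and Foxp1 kept their call, and Foxm1 lost it (limma adjusted p = 0.219). On arrays 3 and 4 alone the Foxm1 log2 ratio was 0.033. The scaled arrays and the 3-value filter ended the calls of Foxc1 and Foxo3 probe 2 (adjusted p = 0.0552 to 0.0611). Leaving out floor values gave 10 forkhead passes (52.6%, against 61.6% of all probes), and scaling the arrays gave 7 (36.8%, against 60.6%). The 10 held Foxa1 probe 2, called lower at -0.27 (limma adjusted p = 0.044). With 3 or more values, Foxl2 and Foxa2 probe 2 were called lower through a value at the floor.

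On arrays 1 and 2 alone the sign turned for Foxa1 probe 1 (-1.35), Foxc2 (-0.93), Foxd3 (0.15), Foxn1 (-0.22), Foxn3 (0.036), Foxo3 probe 1 (0.35) and Foxp4 probe 2 (0.31). On arrays 3 and 4 alone it turned for Foxj1 (-0.54) and Foxo1 (-0.068). With 1 array left out it turned for Foxn1 (-0.0013 to 0.139, below 0 without array 3) and Foxo3 probe 1 (-0.345 to 0.031, above 0 without array 2). The cause was not tested.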
